A study of Homo sapiens with 6 samples.

Results

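The 36 genes described here encode the machinery that brings proteins into mitochondria, folds them there and removes damaged ones. They were chosen by gene symbol from 46427 genes listed per library, not by a limit on measured values. Earlier results of these data were known when they were chosen. They include 7 subunits of the TOM complex, the cytosolic co-chaperone gene TOMM34, 5 small TIM chaperones and the TIM22 channel. The others are 6 genes of the TIM23 translocase, 7 matrix chaperones, both subunits of the processing peptidase and 7 quality-control proteases. RNA came from wild-type K562 cells, a human cell line that the labels call an erythroleukemia of bone marrow origin, grown in medium with fetal bovine serum. One group of 3 libraries received 0.1% DMSO as vehicle and the other 3 received 10 µM HR-19011, which carries only a code name here, both for 24 h. The labels do not give the DMSO content of the HR-19011 libraries, nor do they name the cultures behind the 3 libraries of a group. The spread on which p-values rest is therefore that between these libraries, and it may be technical. By its title the series concerns the integrated stress response. The comparison asks how RNA of this machinery differed between treated and vehicle cells.

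Nearly all mitochondrial proteins are encoded in the nucleus, made in the cytosol and imported. They enter through the TOM complex of the outer membrane, and are then handed to small TIM chaperones of the intermembrane space, to the TIM22 carrier translocase or to the TIM23 presequence translocase, whose motor is driven by the matrix HSP70, HSPA9. Presequences are cut off by the processing peptidase, folding is completed by the HSP60 and HSP10 chaperonin, and misfolded proteins are degraded by proteases such as LONP1, the CLPXP complex and the AAA proteases of the inner membrane.

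All 36 genes averaged 1 FPKM or more across the 6 libraries and so passed the filter on low values. FPKM is a unit that divides a gene's fragments by its transcript length and the library size. Vehicle means ran from 8.40 FPKM for GRPEL2 to 406 FPKM for HSPD1. After HR-19011, 29 of the 36 were lower, 4 were higher and 3 did not pass the test (limma on log2(FPKM + 1), Benjamini-Hochberg adjusted p under 0.05 over all tested genes). Among all 11856 genes tested, 38.0% were lower and 46.4% higher by the same rule, 84.4% in all. A log2 change of -1 or below was found for 14 of the 36 genes, against 6.45% of all genes tested. The 3 vehicle and 3 HR-19011 libraries did not overlap for 34 of the 36 genes, all but TIMM9 and GRPEL2, and for 85.2% of all genes tested. The median log2 fold change was -0.63 over the 36 genes and 0.07 over all tested genes. Since the 36 genes were chosen with earlier results of these data known, these contrasts with all genes are descriptions only. In bulk RNA, fewer cells that express a gene and less RNA per cell cannot be told apart.

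The summed level of the 36 genes was 3243 ± 37.7 FPKM in vehicle and 1885 ± 20.3 FPKM in HR-19011 libraries (SD, n = 3), with no overlap between the groups. The decrease was uneven among roles. The median log2 fold change was -1.45 for the small TIM chaperones, -1.37 for the TOM complex, -0.97 for matrix chaperones, -0.81 for the TIM23 translocase and -0.19 for the proteases. The 4 genes that were higher were the protease LONP1, the peptidase subunit PMPCB, the chaperone HSPA9 and the translocase subunit TIMM17B. The choice of library scaling moves these values. TMM-style scaling (a trimmed mean of log ratios between libraries) shifted the median of all genes by -0.22, quantile normalization (equal distributions) by -0.13 and conversion to TPM (equal totals) by 0.12. Relative to the all-gene median, the median of the 36 genes lay at -0.70 as deposited, -0.73 after TMM-style scaling, -0.71 as TPM and -0.46 after quantile normalization. HSPA9 and TIMM17B turned from higher to below 0 after TMM-style scaling, whereas LONP1 and PMPCB stayed higher under each scaling tried. The TMM-style factors were taken from genes above 0 in both libraries compared, including genes below the filter on low values. That scaling did not centre the tested genes, whose median was -0.15 after it, -0.06 after quantile normalization and 0.19 as TPM. The log2 fold change of HSPA9 was 0.40 after quantile normalization and 0.37 as TPM. For TIMM17B it was 0.33 and 0.29.

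**Figure D1:**
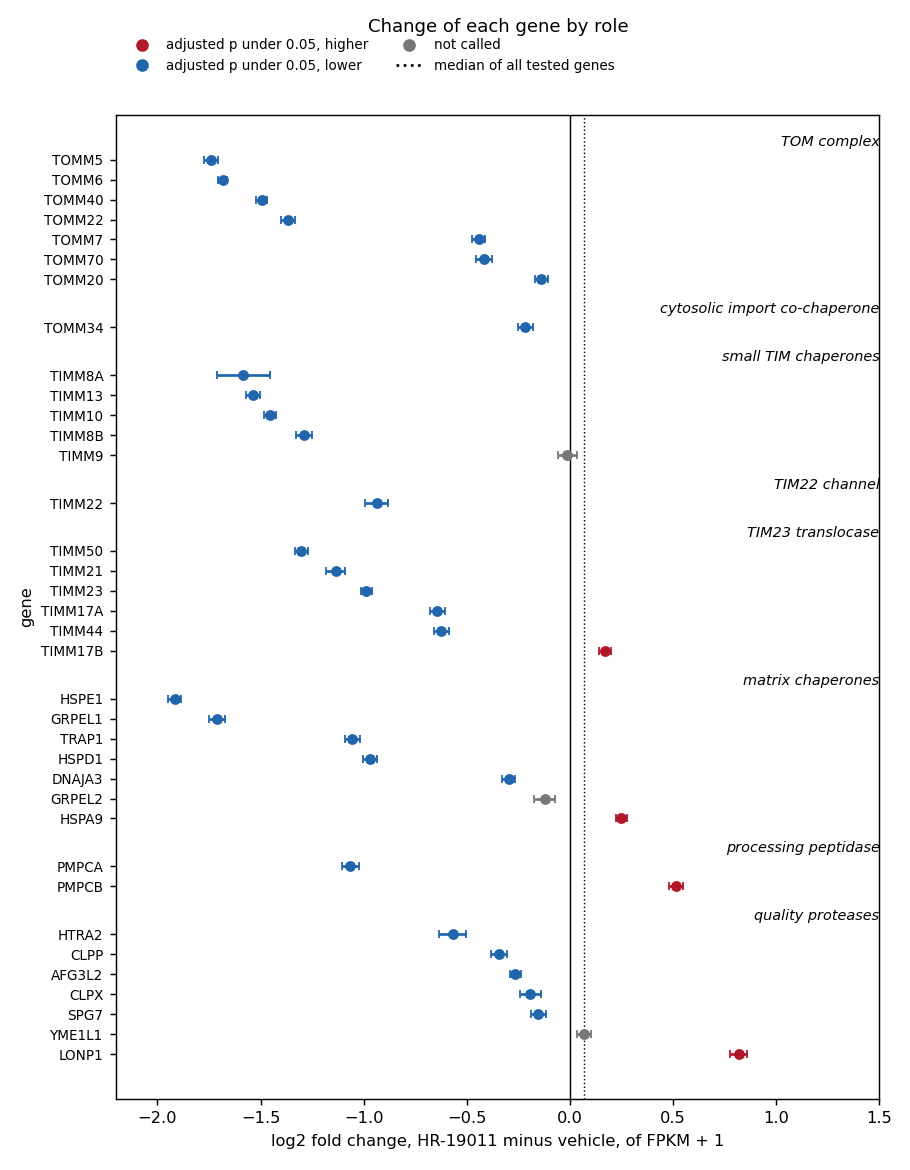
Log2 fold change (HR-19011 minus vehicle, of FPKM + 1, horizontal axis) of each of the 36 genes (vertical axis), grouped by role. Points are fitted values with SE bars, coloured by call, and the dotted line marks the median of all tested genes at 0.07; 29 points lie to the left as lower calls and 4 to the right as higher calls.

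Erythroid markers were present in all libraries, and most were lower after HR-19011. All 9 erythroid markers examined passed the filter, 8 of them lower, against 38.0% of all genes tested. Their summed level lay between 8671 and 8839 FPKM in vehicle and between 3551 and 3736 FPKM in HR-19011 libraries. Most of that sum was HBG1 (3349 ± 44.1 to 1312 ± 34.3 FPKM) and HBG2 (4386 ± 85.2 to 1885 ± 54.5 FPKM). TAL1 was not called (31.3 ± 0.858 to 32.0 ± 1.43 FPKM), and TFRC fell 1.12-fold only. Of the markers of T cells, B cells, myeloid, stromal and endothelial cells, 3 passed the filter and were higher: CD3D (7.40 ± 1.54 to 11.9 ± 0.263 FPKM), LYZ (11.6 ± 0.442 to 12.8 ± 0.522 FPKM) and PECAM1 (1.12 ± 0.134 to 1.64 ± 0.252 FPKM). The summed level of the B cell markers went from between 0.262 and 0.509 to between 0.627 and 0.989 FPKM, the defining markers MS4A1, ELANE and CDH5 were listed at 0 in all 6 libraries, and the part of these differences in the results below was not tested. Summed FPKM per library lay between 456639 and 467595 in vehicle and between 420661 and 427819 in HR-19011, the files give no read counts, and the depth behind each value is unknown.

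All 7 genes of the TOM complex were lower after HR-19011, TOMM40, TOMM22, TOMM5 and TOMM6 by more than 2-fold and TOMM7, TOMM70 and TOMM20 by less. Their summed level was 1219 ± 6.13 FPKM in vehicle and 588 ± 3.81 FPKM in HR-19011 libraries (SD, n = 3). TOMM40, which encodes the beta-barrel channel itself, was listed at 188, 191 and 192 FPKM in the vehicle libraries and at 67.6, 67.9 and 65.2 FPKM in the HR-19011 libraries. It fell 2.84-fold (log2 fold change -1.49, SE 0.0261, adjusted p = 2.45e-10 in limma) without overlap. The gene lies on chromosome 19 from 44891254 to 44903689 (GRCh38.p14, as for the other positions). TOMM22, the central receptor that organizes the complex, went from 41.4, 39.3 and 39.8 FPKM to 15.3, 14.7 and 14.7 FPKM, a 2.69-fold fall without overlap (log2 fold change -1.37, SE 0.0343, adjusted p = 1.56e-09).

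The small subunits, which stabilize the channel, did not move alike. TOMM5 was listed at 186, 183 and 185 FPKM in vehicle and 54.0, 57.2 and 52.5 FPKM in HR-19011 libraries, 3.39-fold lower (log2 fold change -1.74, SE 0.0337, adjusted p = 3.96e-10). TOMM6, the highest TOM transcript in vehicle cells, went from 375, 386 and 383 FPKM to 118, 118 and 118 FPKM, 3.23-fold lower (log2 fold change -1.68, SE 0.0227, adjusted p = 9.64e-11). Both showed treated libraries within a narrow band well below vehicle. TOMM7, the other small subunit, fell 1.36-fold only, from 249.8, 262 and 258 to 194, 182 and 191 FPKM (log2 fold change -0.44, SE 0.0312, adjusted p = 1.11e-06), and was the highest TOM transcript in treated cells.

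The peripheral receptors changed by less than 1.5-fold. TOMM20, which recognizes presequences, was listed at 138, 127 and 133 FPKM in vehicle and 119, 122 and 121 FPKM in HR-19011 libraries, groups that did not overlap but differed by 1.103-fold (log2 fold change -0.14, SE 0.0325, adjusted p = 0.00324). That call was lost after quantile normalization (log2 fold change -0.0013, adjusted p = 0.975) and as TPM (-0.016, adjusted p = 0.622). TOMM70, which receives carrier proteins from cytosolic chaperones, fell 1.35-fold, from 33.4, 31.4 and 32.8 to 23.4, 23.6 and 25.1 FPKM (log2 fold change -0.42, SE 0.0389, adjusted p = 7.51e-06). The cytosolic co-chaperone gene TOMM34 fell 1.17-fold (28.6 ± 0.742 to 24.5 ± 0.708 FPKM, SD, n = 3). The ratio of TOMM20 to TOMM40 within a library, which does not depend on a factor common to the library, stood at 0.734, 0.667 and 0.694 in vehicle and at 1.77, 1.79 and 1.85 in HR-19011 libraries. TOMM20 was thus below TOMM40 in each vehicle library and above it in each treated library.

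Among the small TIM chaperones, which shield hydrophobic proteins in the intermembrane space as hexamers, 4 of 5 fell by more than 2-fold. TIMM10 (chromosome 11, 57528464 to 57530754) was listed at 60.0, 59.3 and 61.3 FPKM in vehicle and 21.5, 20.8 and 21.6 FPKM in HR-19011 libraries (log2 fold change -1.45, SE 0.0300, adjusted p = 5.32e-10), a 2.82-fold fall. Its hexamer partner TIMM9 did not pass the test, with 22.7, 22.0 and 24.1 FPKM in vehicle and 23.8, 21.6 and 22.7 FPKM in HR-19011 libraries, overlapping groups (log2 fold change -0.01, SE 0.0468, adjusted p = 0.809). The 2 genes encode an assembly of equal parts, and their ratio within a library went from 0.379, 0.370 and 0.393 to 1.11, 1.04 and 1.051 (TIMM9 over TIMM10). After TMM-style scaling TIMM9 was called lower (log2 fold change -0.26, adjusted p = 0.00053), still far less than TIMM10.

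The second hexamer is built from TIMM8A and TIMM13, with TIMM8B as a paralog of TIMM8A. TIMM13 went from 50.6, 53.6 and 52.8 to 17.3, 17.1 and 17.8 FPKM (log2 fold change -1.54, SE 0.0336, adjusted p = 7.43e-10); it shares exon sequence on the same strand with LMNB2, which was listed at 67.4 ± 2.28 FPKM in vehicle and 29.99 ± 1.06 FPKM in HR-19011 libraries, and the sources used here do not say how such reads were divided. In the GENCODE annotation, 11 of the 36 genes share exon sequence with another gene listed at 5 FPKM or more, all but TIMM13 on the opposite strand. They include HSPD1 and HSPE1, which overlap each other there, although their RefSeq spans given below do not. The library kit keeps strand, the sources used here do not say whether the counting used it, and the part of such reads in these values was not tested. TIMM8A was listed at 16.3, 17.3 and 15.4 FPKM in vehicle and 5.59, 5.46 and 3.54 FPKM in HR-19011 libraries, where replicate 3 was lowest (log2 fold change -1.58, SE 0.129, adjusted p = 2.96e-06, and -1.41 without HR-19011 replicate 3). TIMM8B went from 46.4, 50.03 and 51.1 to 19.6, 19.7 and 19.3 FPKM (log2 fold change -1.29, SE 0.0396, adjusted p = 4.91e-09). The ratio of TIMM8A to TIMM8B was 0.352, 0.347 and 0.3005 in vehicle and 0.286, 0.277 and 0.184 in HR-19011 libraries, a log2 difference of -0.44 that rested largely on 1 library, since it was -0.24 without HR-19011 replicate 3. TIMM22, the channel to which these chaperones deliver carrier proteins, was one of the least abundant of the 36 genes and fell 2.12-fold, from 9.28, 8.96 and 9.90 to 4.11, 4.47 and 4.69 FPKM (log2 fold change -0.94, SE 0.0553, adjusted p = 3.23e-07).

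**Figure D2:**
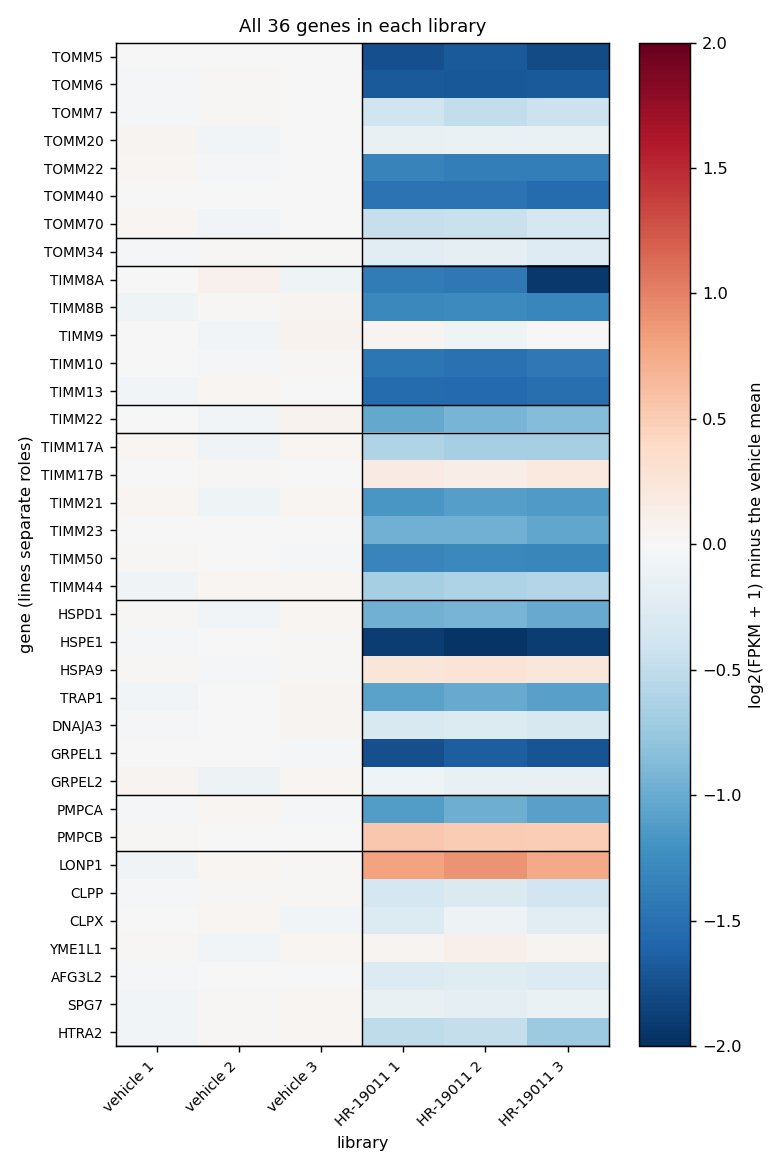
Log2(FPKM + 1) of all 36 genes (rows, lines separate roles) in each of the 6 libraries (columns), as the difference from the vehicle mean of the gene. The 3 HR-19011 columns look alike for nearly every gene, and TIMM8A is lowest in HR-19011 replicate 3. In these columns LONP1 and PMPCB are red, while HSPA9 and TIMM17B are only faintly so.

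In the TIM23 translocase, 5 of 6 genes fell and 1 rose. TIMM23, the channel subunit, was listed at 105, 104 and 106 FPKM in vehicle and 53.4, 53.6 and 51.0 FPKM in HR-19011 libraries (log2 fold change -0.99, SE 0.0286, adjusted p = 3.59e-09), 2.00-fold lower. Its near-identical copy TIMM23B was listed at 6.01 ± 0.621 and 5.63 ± 0.350 FPKM, so reads placed on the copy came to 5.70% of the TIMM23 level in vehicle and 10.7% in HR-19011; the sum of both had a log2 fold change of -0.92. TIMM50, the receptor that passes presequences from TOM to the channel, fell 2.57-fold, from 36.9, 36.8 and 35.7 to 14.0, 14.4 and 14.2 FPKM (log2 fold change -1.30, SE 0.0311, adjusted p = 1.19e-09). TIMM21, which tethers the translocase to TOM and to respiratory chain intermediates, fell 2.40-fold (14.8 ± 0.841 to 6.18 ± 0.156 FPKM), and TIMM44, the scaffold that docks the HSPA9 motor on the channel, fell 1.554-fold (64.4 ± 2.72 to 41.4 ± 1.049 FPKM; SD, n = 3).

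The paralogs TIMM17A and TIMM17B, alternative partners of TIMM23 in the channel, went opposite ways. TIMM17A was listed at 91.6, 84.8 and 91.7 FPKM in vehicle and 58.2, 56.1 and 56.2 FPKM in HR-19011 libraries, 1.57-fold lower without overlap (log2 fold change -0.64, SE 0.0367, adjusted p = 2.57e-07). TIMM17B was listed at 62.1, 63.3 and 62.3 FPKM and 70.4, 69.0 and 72.1 FPKM, 1.13-fold higher without overlap (log2 fold change 0.17, SE 0.0275, adjusted p = 0.000334), but at a log2 fold change of -0.083 (adjusted p = 0.0216) after TMM-style scaling. Which of the paralogs was the more abundant therefore switched: the ratio of TIMM17A to TIMM17B was 1.48, 1.34 and 1.47 in vehicle and 0.828, 0.813 and 0.779 in HR-19011 libraries, above 1 in each vehicle library and below 1 in each treated one. TIMM17B shares exon sequence on the opposite strand with PQBP1, which was listed at 91.6 ± 2.03 FPKM in vehicle and 61.0 ± 2.96 FPKM in HR-19011 libraries.

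HSPD1 and HSPE1 encode HSP60 and HSP10, the barrel and the lid of the matrix chaperonin, and stand head to head on chromosome 2. HSPD1 runs on the minus strand from 197486584 to 197500274 and HSPE1 on the plus strand from 197500379 to 197503449, so their RefSeq start sites are 105 bases apart. The stretch between these starts, 104 bases at chr2:197500275-197500378, is shown because both genes are read outward from it. It is given on the plus strand, towards HSPE1, from the RefSeq promoter table for GRCh38.p14, with the E-box motif CACGTG in capitals.
HSPD1-HSPE1: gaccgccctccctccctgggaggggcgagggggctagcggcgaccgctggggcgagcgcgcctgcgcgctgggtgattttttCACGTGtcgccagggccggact

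Both genes fell, but not alike. HSPD1 was listed at 412, 390.0 and 416 FPKM in vehicle, the highest level among the 36 genes, and at 208, 213 and 200.4 FPKM in HR-19011 libraries, 1.96-fold lower (log2 fold change -0.97, SE 0.0330, adjusted p = 9.3e-09). HSPE1 was listed at 267, 274 and 278 FPKM and 72.9, 69.1 and 72.9 FPKM, 3.81-fold lower (log2 fold change -1.92, SE 0.0299, adjusted p = 1.51e-10), the largest fall of the 36 genes. HSPE1 transcripts per HSPD1 transcript, both per length, thus went from 0.649, 0.703 and 0.669 in the vehicle libraries to 0.351, 0.325 and 0.364 in the HR-19011 libraries. The pseudogene HSPD1P1 was listed at 5.05 ± 0.248 and 2.58 ± 0.120 FPKM and HSPD1P11 at 0.849 ± 0.293 and 1.19 ± 0.164 FPKM (SD, n = 3). Summed with 15 HSPD1 pseudogenes and with 21 HSPE1 copies, which are pseudogenes and 1 read-through gene, the log2 fold changes were -0.96 and -1.91.

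The matrix HSP70 system divided. HSPA9, the HSP70 that pulls proteins into the matrix and folds them, rose 1.19-fold, from 158, 151 and 159 to 185, 189 and 183 FPKM without overlap (log2 fold change 0.25, SE 0.0279, adjusted p = 2.82e-05), a value that went to -0.0068 (adjusted p = 0.808) after TMM-style scaling. Its nucleotide exchange factor GRPEL1, which releases ADP from HSPA9 (chromosome 4, 7058895 to 7068064), fell 3.59-fold, from 25.7, 25.6 and 25.0 to 6.81, 7.44 and 7.03 FPKM (log2 fold change -1.71, SE 0.0397, adjusted p = 1.01e-09). The second exchange factor, GRPEL2, was listed at 8.80, 7.78 and 8.62 FPKM in vehicle and 7.89, 7.49 and 7.49 FPKM in HR-19011 libraries, overlapping groups that just missed the threshold (log2 fold change -0.12, SE 0.0513, adjusted p = 0.0507). GRPEL2 was called lower after TMM-style scaling (log2 fold change -0.35, adjusted p = 0.000141) and without vehicle replicate 2 (-0.17, adjusted p = 0.0075).

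In vehicle libraries GRPEL1 exceeded GRPEL2 by ratios of 2.93, 3.30 and 2.91. In HR-19011 libraries the ratios were 0.863, 0.992 and 0.939, so that GRPEL2 was level with or slightly above GRPEL1 in each. DNAJA3, a J-domain partner of HSPA9, fell 1.235-fold (48.3 ± 1.62 to 39.1 ± 0.735 FPKM; adjusted p = 2.73e-05). TRAP1, the mitochondrial HSP90, started at the level of HSPA9 and fell 2.09-fold, from 149.7, 157 and 163 to 73.8, 77.1 and 72.9 FPKM (log2 fold change -1.06, SE 0.0367, adjusted p = 1.04e-08).

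**Figure D3:**
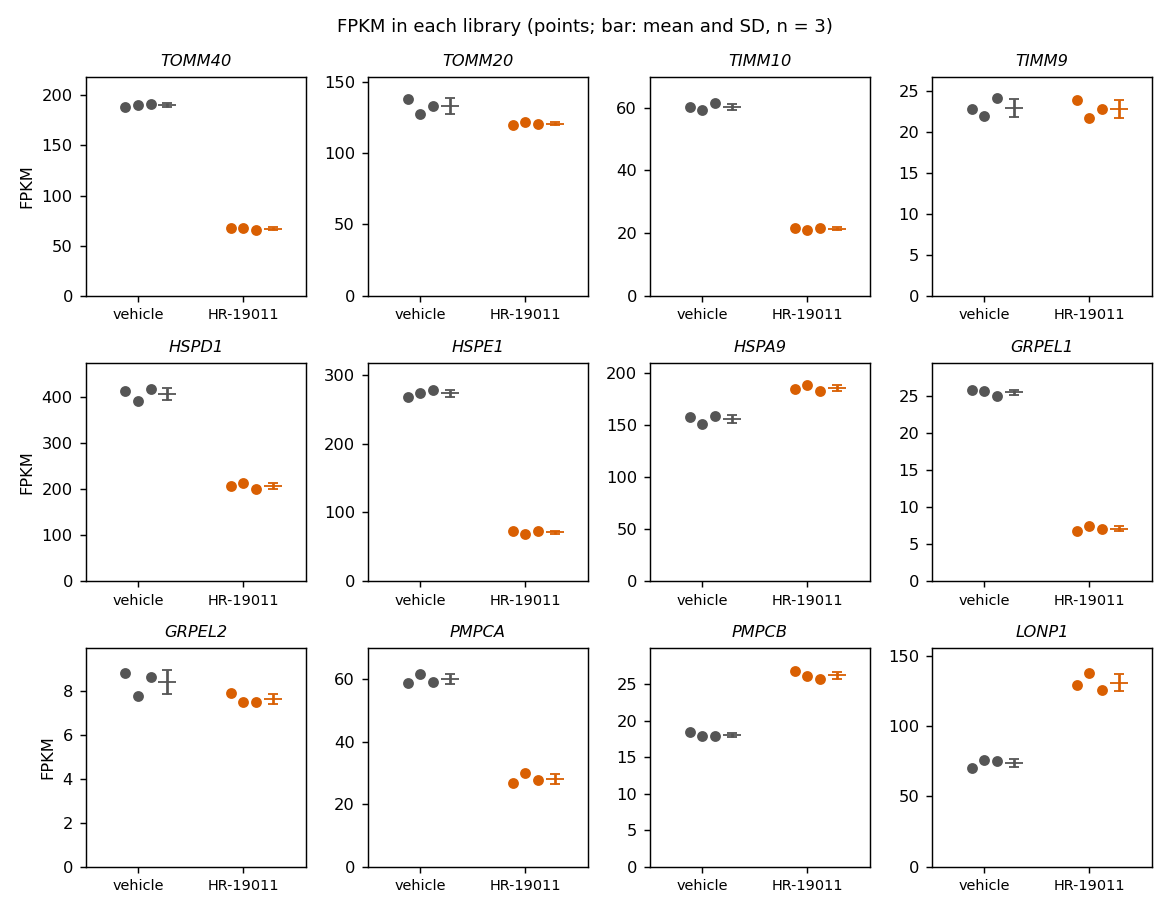
FPKM of 12 of the genes (vertical axes, from 0) in each of 3 vehicle and 3 HR-19011 libraries (points), with the mean and SD beside them. TOMM40, TIMM10, HSPE1 and GRPEL1 are far lower in treated libraries, TIMM9 and GRPEL2 overlap between groups, and HSPA9, PMPCB and LONP1 are higher.

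The subunits of the processing peptidase, which cut presequences as a dimer, also went opposite ways. PMPCA, the subunit that recognizes substrates (chromosome 9, 136410658 to 136423761), was listed at 58.8, 61.7 and 59.1 FPKM in vehicle and 26.9, 29.8 and 27.6 FPKM in HR-19011 libraries, 2.13-fold lower (log2 fold change -1.06, SE 0.0418, adjusted p = 2.25e-08). PMPCB, the catalytic subunit (chromosome 7, 103297435 to 103347542), was listed at 18.4, 17.9 and 17.9 FPKM and 26.7, 26.1 and 25.8 FPKM, 1.45-fold higher (log2 fold change 0.51, SE 0.0321, adjusted p = 4.74e-07). Neither gene overlapped between groups. Vehicle libraries held 3.19, 3.46 and 3.31 times as much PMPCA as PMPCB per length, and HR-19011 libraries 1.01, 1.14 and 1.07 times as much. Opposite-strand neighbours with shared exon sequence were ENTR1 for PMPCA, listed at 39.8 ± 0.872 FPKM in vehicle and 17.7 ± 0.672 FPKM in HR-19011 libraries, and DNAJC2 for PMPCB, listed at 53.3 ± 2.09 FPKM in vehicle and 30.9 ± 1.02 FPKM in HR-19011 libraries.

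The proteases changed least as a group, with 1 higher, 5 lower and 1 not called of 7, and none lower by a log2 change of 1. Their summed level was 261 ± 5.03 FPKM in vehicle and 294 ± 10.2 FPKM in HR-19011 libraries (SD, n = 3). LONP1 carried that rise: the other 6 summed to 187 ± 2.53 FPKM in vehicle and 163 ± 3.99 FPKM in HR-19011 libraries. The gene called higher was LONP1, the ATP-driven protease of the matrix, which was listed at 70.3, 75.6 and 75.2 FPKM in vehicle and 129, 138 and 126 FPKM in HR-19011 libraries. LONP1 was 1.77-fold higher without overlap (log2 fold change 0.82, SE 0.0418, adjusted p = 1.21e-07), the largest rise of the 36 genes, on chromosome 19 from 5691834 to 5720452. It shares exon sequence on the opposite strand with RPL36, listed at 545 ± 21.4 FPKM in vehicle and 552 ± 9.50 FPKM in HR-19011 libraries. The ratio of LONP1 to HSPD1 went from 0.171, 0.194 and 0.181 to 0.621, 0.647 and 0.627.

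The 250 bases before the most upstream LONP1 start, at chr19:5720453-5720702 on the minus strand from the same RefSeq table, are shown as those of the gene that rose most, a choice made after its values were seen. Capitals mark GCGCATGCG, the core of the site of the factor NRF1 (nuclear respiratory factor 1), which here reads on both strands.
LONP1: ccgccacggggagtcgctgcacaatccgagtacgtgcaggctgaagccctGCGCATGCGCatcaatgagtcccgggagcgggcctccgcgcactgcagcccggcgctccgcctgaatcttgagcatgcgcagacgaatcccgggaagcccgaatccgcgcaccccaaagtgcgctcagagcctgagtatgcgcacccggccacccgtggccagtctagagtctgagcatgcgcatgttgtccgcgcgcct

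Of the remaining proteases, 5 were lower, by 1.12-fold for SPG7 to 1.51-fold for HTRA2. CLPP, the peptidase barrel of the CLPXP complex, fell 1.28-fold, from 23.5, 24.4 and 24.5 to 18.7, 19.5 and 18.2 FPKM (log2 fold change -0.34, SE 0.0368, adjusted p = 1.99e-05), and its unfoldase CLPX fell 1.15-fold, from 15.9, 16.2 and 15.1 to 12.9, 14.6 and 13.5 FPKM (log2 fold change -0.19, SE 0.0503, adjusted p = 0.00606). The call for CLPX was lost as TPM (adjusted p = 0.188). Of the inner membrane AAA proteases, AFG3L2 fell 1.21-fold (53.7 ± 0.559 to 44.5 ± 0.541 FPKM, adjusted p = 1.24e-05) and its partner SPG7, known as paraplegin, fell 1.12-fold (20.0 ± 0.651 to 17.9 ± 0.366 FPKM, adjusted p = 0.00331, lost as TPM with adjusted p = 0.364). The ratio of SPG7 to AFG3L2 was 0.364, 0.377 and 0.379 in vehicle and 0.404, 0.388 and 0.414 in HR-19011 libraries, and that of CLPX to CLPP 0.675, 0.663 and 0.617 and 0.688, 0.749 and 0.739. Both pairs moved less than the pairs named above.

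YME1L1, the AAA protease that faces the intermembrane space, was listed at 51.4, 48.7 and 52.2 FPKM in vehicle and 52.5, 54.8 and 52.5 FPKM in HR-19011 libraries, each treated library above each vehicle one by a small margin, and did not pass the test (log2 fold change 0.07, SE 0.0349, adjusted p = 0.0966). Its direction depended on scaling, with log2 fold changes of -0.18 after TMM-style scaling, 0.22 after quantile normalization and 0.19 as TPM, each past the threshold. HTRA2, a serine protease of the intermembrane space, fell 1.51-fold, from 21.7, 23.0 and 23.3 to 15.6, 16.1 and 13.3 FPKM (log2 fold change -0.57, SE 0.0644, adjusted p = 3.01e-05).

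Ratios of 2 genes within a library were compared for 10 pairs of partners, paralogs or linked roles, chosen with earlier results of these data known. In all 10 pairs the 3 vehicle and 3 HR-19011 ratios did not overlap. The groups also did not overlap for 85.2% of all single genes tested. No such share was computed for other pairs of genes, so the count says nothing particular about these pairs. An exact two-sided permutation test gave p = 0.1 for each pair, 0.1 after Benjamini-Hochberg adjustment over the 10 pairs, which is the smallest p that 3 against 3 libraries allow, so no pair could pass 0.05. The mean log2 ratio differed between groups (HR-19011 minus vehicle) by 1.80 for LONP1 over HSPD1, -1.71 for GRPEL1 over GRPEL2, -1.63 for PMPCA over PMPCB, 1.48 for TIMM9 over TIMM10 and 1.37 for TOMM20 over TOMM40. It differed by -0.96 for HSPE1 over HSPD1 and -0.82 for TIMM17A over TIMM17B. It differed by 0.15 for CLPX over CLPP and 0.11 for SPG7 over AFG3L2.

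**Figure D4:**
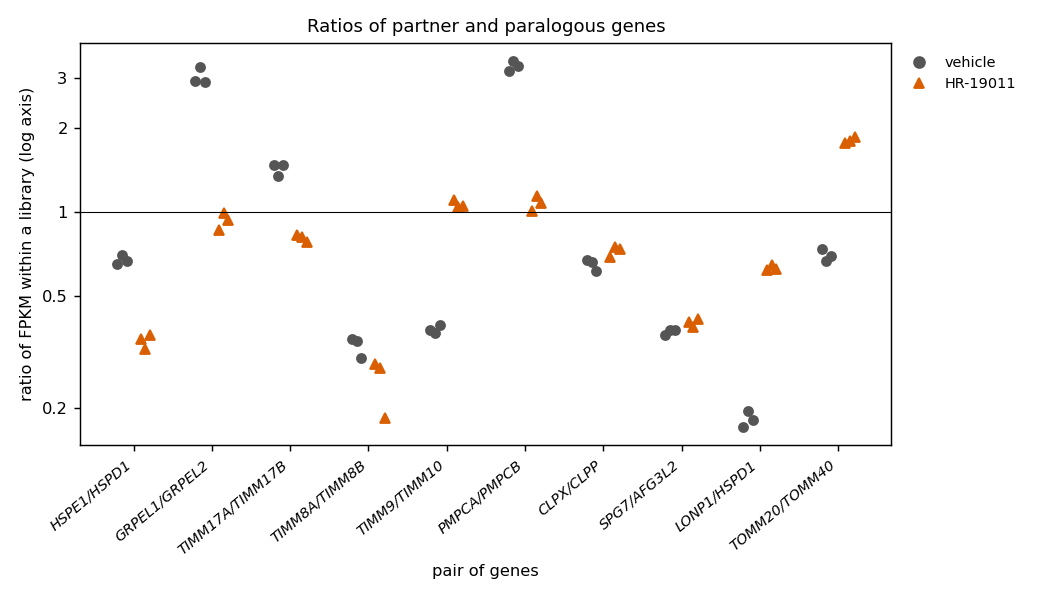
Ratio of the FPKM of 2 genes within each library (log axis) for 10 pairs, with circles for the 3 vehicle and triangles for the 3 HR-19011 libraries. The ratios of TIMM17A to TIMM17B and of GRPEL1 to GRPEL2 cross 1 downward. Those of TOMM20 to TOMM40 and of TIMM9 to TIMM10 cross it upward, while CLPX to CLPP and SPG7 to AFG3L2 stay close to their vehicle values.

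A list of 35 other genes of the same pathway, further import subunits, chaperones, peptidases and scaffolds, was drawn up with earlier results of these data known. Of 32 that passed the filter, 25 were lower, 3 higher and 4 not called, where 38.0% of all genes tested were lower and 46.4% higher. Their median log2 fold change was -0.52, against 0.07 over all tested genes. By role, 13 of 14 genes listed as import subunits, 4 of 5 chaperones and 8 of 13 peptidases and scaffolds were lower. The gene of the import list that was not lower was TIMMDC1, a complex I assembly factor. As TPM, 21 companion genes were lower, with 10 of 14 on the import list and 7 of 13 peptidases and scaffolds. DNAJC19, MTX2, GFER and PARL lost their calls (names given after their values were seen). After quantile normalization MTX2 and PARL lost theirs, but other genes gained calls. In all, 27 companion genes were then lower, with 12 of 14 on the import list and 11 of 13 peptidases and scaffolds. With TMM-style scaling 29 were lower, with 13 of 14 on the import list and 12 of 13 peptidases and scaffolds. The 3 with the lowest log2 fold change of FPKM + 1, a scale that understates changes of low genes, were PHB1 (log2 fold change -1.42, listed under its older symbol PHB), a scaffold of the inner membrane that binds the AAA proteases, from 156 ± 2.45 to 57.8 ± 1.15 FPKM, the channel paralog TOMM40L (-1.05), from 15.5 ± 0.5004 to 6.95 ± 0.356 FPKM, and BCS1L (-0.95), an AAA chaperone of complex III assembly, from 18.6 ± 0.174 to 9.15 ± 0.398 FPKM (SD, n = 3). The 3 higher genes were LACTB, a serine protease of the intermembrane space, from 4.86 ± 0.167 to 6.87 ± 0.342 FPKM, TIMMDC1, a complex I assembly factor, from 23.7 ± 2.96 to 28.0 ± 0.528 FPKM, and the co-chaperone gene HSCB, from 3.83 ± 0.234 to 4.63 ± 0.454 FPKM. After TMM-style scaling the log2 fold changes of TIMMDC1 and HSCB were -0.01 and 0.01, with adjusted p of 0.92 and 0.881, and HSCB was at -0.06 after quantile normalization.

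Transcription factors that are known to act on such genes were measured in the same libraries. ATF5, DDIT3, ATF4 and CEBPB, which take part in stress signalling, were higher at log2 fold changes of 2.93, 3.03, 1.28 and 1.91. NRF1, an activator of nuclear genes for mitochondria, fell from 8.06 ± 0.197 to 5.21 ± 0.188 FPKM and MYC from 55.6 ± 1.17 to 43.4 ± 0.158 FPKM. The heat shock factor gene HSF1 rose from 39.7 ± 1.63 to 48.1 ± 1.52 FPKM as deposited, but its log2 fold change was 0.02 (adjusted p = 0.646) after TMM-style scaling. GABPA and ESRRA were not called as deposited. ESRRA was called lower after TMM-style scaling (log2 fold change -0.35, adjusted p = 0.000324) and GABPA higher as TPM (0.23, adjusted p = 0.00561).

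Motif letters in the promoters were counted for the 31 of 36 genes found in the RefSeq table, over windows from 250 bases before to 50 after each start, on both strands. Shares of all genes below are over the 27305 genes of that table, whether or not they passed the filter here. No share was computed over the tested genes alone, so these shares do not compare like sets. The E-box CACGTG was in a window of 7 of the 31 (22.6%) against 8.77% of all genes in the table: HSPD1, HSPE1, TOMM20, TIMM8A and TIMM10, which fell, and LONP1 and HSPA9, which rose. The adjoining windows of HSPD1 and HSPE1 overlap and share that match. The E-box match counted for LONP1 lies outside the 250 bases shown above. The NRF1 core GCGCATGCG was in 4 (12.9%, against 2.34%), namely LONP1, TIMM9, DNAJA3 and TOMM7. TGATGNAA, the letters of the composite element bound by ATF4 with C/EBP factors, was in 2 (6.45%, against 4.46%), PMPCB and TIMM22. The heat shock element pair TTCNNGAA was in 4 (12.9%, against 9.46%), HSPD1, HSPA9, TIMM10 and TOMM70, and GAANNTTC in 1 (3.23%, against 8.21%), HSPD1. No binding was measured, and a match in these windows is a description of the letters alone.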

How the data were processed

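Polyadenylated RNA of K562 cells was sequenced from stranded libraries, 3 per group, per the labels' protocols. The deposited values are FPKM per gene, computed by the authors, per the file headers. The submitters' processing notes list, without roles, the build GRCh38 and the tools StringTie 2.1.3b, HISAT2 2.1.0, HISAT, DESeq2 1.24.0, SAMtools 1.9, Bowtie2 and Trimmomatic 0.38. The use of strand in counting is not stated there. A search for whole reads behind low FPKM values placed at best 29.4% to 34.3% of them within 0.1 of a whole number, so depth is unknown, no count test was run, and no counting interval is given.

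Groups follow the labels. The 11856 genes that averaged 1 FPKM or more across all 6 libraries entered limma 3.58.1 (R 4.3.3) as log2(FPKM + 1), in an empirical Bayes fit with trend and group as the only term, with Benjamini-Hochberg adjustment over all of them and a threshold of 0.05. A fold change on this scale understates changes of low genes; folds in the text are ratios of mean FPKM. Ratios within libraries were compared with exact permutation tests in SciPy 1.17.1. All 36 genes are named, as are the 3 highest and 3 lowest called companion genes, called regulators, and copies reaching a mean of 1 FPKM in a group. The members and lists were chosen with earlier results of these data known. The script was tested on simulated data. Promoters come from RefSeq (GRCh38.p14); protein sequences were not used here. Alternatives were other pseudocounts, filters, scalings, thresholds, a fit without trend, a replicate block and each library left out; summing members with their copies, the protease sum without LONP1 and companion counts by role under each scaling were added after seeing the data.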

Additional observations from a re-analysis of the deposited data

How the results depend on the processing

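Of the 36 genes, 28 kept their direction and their side of the threshold under every alternative tried, and 8 did not under at least 1. After TMM-style scaling 2 of the 36 genes were called higher and 33 lower, 1 companion gene was called higher, and the median log2 fold change of the 36 genes was -0.89; log2 fold changes turned to -0.083 for TIMM17B, -0.0068 for HSPA9 and -0.18 for YME1L1. That median was -0.59 with a pseudocount of 5, -0.52 after quantile normalization and -0.52 as TPM. At a threshold of 0.01, 1 companion gene was higher. Among all genes called, 55.0% were higher as deposited, 40.1% after TMM-style scaling, 46.1% after quantile normalization, 62.2% as TPM, 64.4% without the filter and 47.5% under a 5 FPKM minimum.

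With each library left out in turn, 9686 to 9822 of all genes were called, 4 of the 36 were higher and 29 to 30 lower, 2 to 3 companion genes were higher and 25 lower, and the median lay between -0.64 and -0.62. GRPEL2 also passed the threshold with a pseudocount of 5, under a 5 FPKM minimum, after quantile normalization and after scaling to equal totals without globin and mitochondrially encoded genes. Replicate numbers are shared between groups in the labels, but deviations of same-numbered libraries correlated at -0.108 to -0.00448, so they were not treated as pairs. With the replicate block, 9880 genes were called in place of 10009, with 4 of the 36 higher and 30 lower, GRPEL2 being added (adjusted p = 0.0487 in limma). Depth is unknown, so what it limits cannot be stated.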

Other observations

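Across the 36 genes, vehicle level and log2 fold change had a Spearman correlation of -0.25, and across all 11856 tested genes -0.46. Both are descriptions across genes of the same 6 libraries, which share the vehicle values on both axes.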
